A study of Mus musculus with 8 samples.

Results

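Bcl6, Cxcr5, Sh2d1a, Slamf6, Pou2af1 and Tox, genes of the follicular T cell programme, were followed in sorted mouse regulatory T cells. The members are all probes of the non-normalised array table annotated with one of these 6 symbols. They came to 7 probes of the 25697 on the array: 3 for Cxcr5, 1 each for Bcl6, Sh2d1a, Slamf6 and Pou2af1, and 0 for Tox, whose level was not analysed here. All 7 were detected on all 8 arrays. They are 5 genes of the 16593 with a probe named here. The members were chosen by their log2 difference between the groups, which was already known for Bcl6 and Cxcr5, so that difference is described for each and not tested.

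Follicular helper T cells enter B cell follicles and help B cells in germinal centres, and follicular regulatory T cells use much of the same programme to restrain that help. BCL6 is the repressor at its centre, and it and the repressor Blimp-1 (Prdm1) oppose each other. CXCR5 is the chemokine receptor that draws cells towards CXCL13 in the follicle. SLAMF6 is a self-binding receptor on lymphocytes that signals through the small adaptor SAP (Sh2d1a), which T cells need for lasting contact with B cells. OCA-B (Pou2af1) is a coactivator of octamer factors, best known from B cells, and TOX is a nuclear DNA-binding protein.

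The cells were natural regulatory T cells of C57BL/6 background, sorted as CD4+GFP+ from B6.FoxP3-GFP mice, in which GFP reports Foxp3. One group of 4 arrays is labelled G-CSF (granulocyte colony-stimulating factor, a growth factor that mobilises stem cells). The other 4 are titled naive but have saline as their treatment label, so they may have been given saline or left untreated. The labels give no age, dose, time or organ, and no label gives the mouse or sort behind an array, so the error behind each p-value is that among arrays and may be only technical. The deposited table contradicts itself on the groups. On 0 of 8 arrays did the detection p-values fall in step with the intensities beside them, and on all 8 they were in perfect order with the intensities of the same replicate number in the other group. Intensity labels were kept here, so every difference below turns sign if those are the columns out of place.

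Between 9588 and 10519 probes were detected on an array. G-CSF replicates 3 and 4 were the brightest, with median raw intensities of 180.8 and 145 against 117.8 to 125.8 on the other 6. The regulatory T cell label was borne out by its markers, all 16 of which were measured. Foxp3, the lineage factor, lay between log2 intensities of 12.12 and 13.79 on its brightest probe, and Ctla4 between 13.41 and 14.67. Il2ra lay between 10.46 and 11.16, Cd4 between 8.60 and 9.64, and Cd3e between 14.12 and 14.42. Some markers differed between the groups. G-CSF and naive arrays did not overlap for Ctla4 (G-CSF minus naive -0.57), Ikzf4 (0.83) and Nrp1 (0.65), against 13.6% of all probes tested. Foxp3 had 0.49 on its brightest probe and 0.79 and 0.97 on the others. None of these had a limma adjusted p under 0.05. Levels are log2 intensities after background correction and quantile normalisation. They compare one probe across arrays and not one probe with another.

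Bcl6 has the sequence context shown first, because its gene was among those higher in arrays labelled G-CSF and its 2 annotated starts both hold a letter pattern that STAT factors, the transducers of cytokine receptors, are known to recognise. The windows run from 250 bases before to 50 bases after each RefSeq start (GRCm38.p6, minus strand), with each match to TTCNNNGAA in capitals. This palindrome reads the same on both strands and overlaps the pattern that BCL6 itself is known to bind.
Bcl6 start 1, chr16:23988803-23989102: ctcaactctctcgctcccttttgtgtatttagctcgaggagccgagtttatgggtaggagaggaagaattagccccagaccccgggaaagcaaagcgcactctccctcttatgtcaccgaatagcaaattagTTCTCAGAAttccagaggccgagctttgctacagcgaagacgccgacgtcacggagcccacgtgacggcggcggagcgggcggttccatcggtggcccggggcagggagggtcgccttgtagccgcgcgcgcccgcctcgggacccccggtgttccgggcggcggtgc
Bcl6 start 2, chr16:23981234-23981533: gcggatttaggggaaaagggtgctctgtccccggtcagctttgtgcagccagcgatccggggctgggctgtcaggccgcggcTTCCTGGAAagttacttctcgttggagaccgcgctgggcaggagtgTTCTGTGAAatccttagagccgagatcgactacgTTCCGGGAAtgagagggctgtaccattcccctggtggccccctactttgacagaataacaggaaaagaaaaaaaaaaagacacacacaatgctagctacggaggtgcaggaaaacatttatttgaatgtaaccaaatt
Start 1 held 1 match, TTCTCAGAA, and start 2 held 3, TTCCTGGAA, TTCTGTGAA and TTCCGGGAA. Of 32851 such windows of all genes, 8.3% held at least 1 match, 0.457% at least 2 and 0.0335% at least 3. The windows of Slamf6 and Pou2af1 held 0 matches, and the octamer ATGCAAAT, searched on both strands and found in 1.74% of all windows, was in none of the 4 windows. Cxcr5, Sh2d1a and Tox had no window and were not searched, so Bcl6 was the only gene higher in arrays labelled G-CSF among the members searched. The Bcl6 windows were shown partly because they hold matches, so the shares are a description and no test. A match describes the letters and shows no binding, and a part of STAT factors in the Bcl6 difference was not tested.

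Bcl6 transcript was higher on every array labelled G-CSF than on any titled naive. Its log2 intensities were 11.02, 11.17, 11.11 and 11.48 on G-CSF replicates 1 to 4 and 10.65, 10.10, 10.25 and 10.35 on naive replicates 1 to 4. The groups were 0.37 apart at their nearest, between G-CSF replicate 1 and naive replicate 1. Means were 11.20 ± 0.20 (SD, n = 4) and 10.34 ± 0.23 (SD, n = 4), a difference of 0.86 ± 0.16 (SE) on the log2 scale or 1.82-fold. Raw intensities, before any scaling, were also apart, at 1961 to 4188 and 887 to 1470. They include the brightness of each array, and G-CSF replicate 3, the brightest, had the highest raw value for all 7 member probes.

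Cxcr5 gave 3 separate readings, and on each of them all G-CSF arrays were above all naive arrays. On the brightest probe, ILMN_2990494, log2 intensities were 11.92, 12.02, 12.19 and 12.38 on the G-CSF arrays and 10.81, 11.46, 11.16 and 11.20 on the naive arrays. The difference there was 0.97 ± 0.17 (SE, n = 4 per group), or 1.96-fold. Probe ILMN_2990502 had 10.98, 11.29, 11.40 and 11.21 against 9.97, 10.74, 10.35 and 10.67. That is a difference of 0.79 ± 0.19 (SE, n = 4 per group), with the groups 0.24 apart at their nearest.

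The dimmest Cxcr5 probe, ILMN_1219316, read 9.54, 9.66, 9.54 and 9.54 on the G-CSF arrays and 8.46, 9.38, 8.77 and 9.16 on the naive arrays. Its difference was 0.63 ± 0.19 (SE, n = 4 per group), and the gap between the groups, 0.16, was the smallest of the 3. Its G-CSF arrays were close together (SD 0.06) and its naive arrays were not (SD 0.41). The 3 probes thus shared a direction but differed in size from 1.54-fold to 1.96-fold. The gap between the brightest and the dimmest probe within an array was 2.35 to 2.84 on G-CSF arrays and 2.04 to 2.39 on naive arrays. No probe sequences were used here, so it is not known which part of the transcript each reads or whether they overlap.

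**Figure D1:**
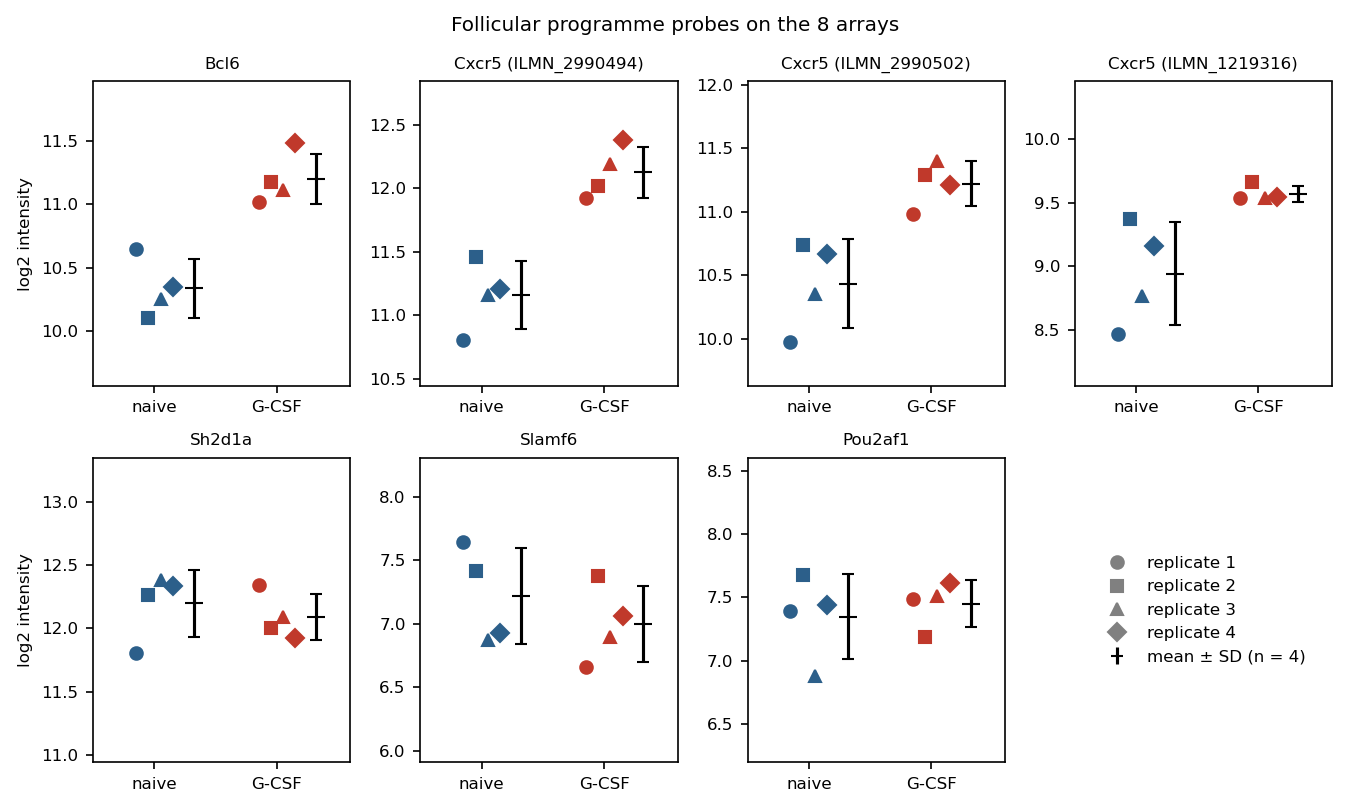
Log2 intensity (vertical axes, all spanning the same log2 range) of the 7 probes on the 4 naive arrays (blue) and 4 G-CSF arrays (red), with marker shape giving the replicate number and black bars the mean ± SD. Bcl6 and the 3 Cxcr5 probes show groups that do not overlap, and Sh2d1a, Slamf6 and Pou2af1 show groups that do.

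The naive arrays were not ordered alike by both genes. Naive replicate 1 was the lowest array on all 3 Cxcr5 probes and the highest naive array for Bcl6. Naive replicate 2 was the highest naive array on all 3 Cxcr5 probes and the lowest of all for Bcl6. Within that group, then, the array with the most Bcl6 signal had the least Cxcr5 signal, while both genes were higher in the other group. Naive replicate 1 also had the highest signal of the 8 arrays on the brightest of 3 Foxp3 probes.

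Sh2d1a, which encodes SAP, was bright and showed little difference. It read 12.34, 12.00, 12.09 and 11.92 on the G-CSF arrays and 11.81, 12.26, 12.38 and 12.34 on the naive arrays. Naive replicate 1 was the lowest of the 8 and the other naive arrays were among the highest. The difference was -0.11 ± 0.17 (SE, n = 4 per group), smaller than its SE. Scaling arrays to the median of all probes gave 0.13, but moved the median of all tested probes to 0.29, and relative to that shift Sh2d1a had -0.16.

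Slamf6, the SLAM receptor that uses SAP, was dim and its groups overlapped. It read 6.66, 7.37, 6.90 and 7.06 on the G-CSF arrays and 7.65, 7.42, 6.87 and 6.93 on the naive arrays. The difference of -0.22 ± 0.21 (SE, n = 4 per group) was smaller than the SD of either group (0.30 and 0.38). The same scaling gave 0.06, or -0.22 relative to its shift. Pou2af1 was also dim, at 7.49, 7.18, 7.51 and 7.62 on the G-CSF arrays and 7.39, 7.67, 6.88 and 7.44 on the naive arrays. Naive arrays included both its highest and its lowest value, and its difference of 0.10 ± 0.18 (SE, n = 4 per group) became -0.05 without naive replicate 3.

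Among all 10205 probes detected on at least 4 arrays and tested together, the difference of the brightest Cxcr5 probe stood at percentile 98.8, that of Bcl6 at 98.1, and those of the other Cxcr5 probes at 97.1 and 94.4. Pou2af1 stood at 61.7, Sh2d1a at 38.2 and Slamf6 at 27.0. The groups did not overlap for 4 of the 7 probes, against 13.6% of all probes, and 2 of the 7, Bcl6 and the brightest Cxcr5 probe, were among the 2.2% called by limma at an adjusted p under 0.05. Each of these calls was lost in 10 of 21 other settings, among them the replicate block, both looser detection filters, the fit without the 2 brightest arrays and the fits without any 1 array except G-CSF replicate 1 or naive replicate 1. These counts restate a difference that was already known when the members were picked, and nothing is read from them.

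**Figure D2:**
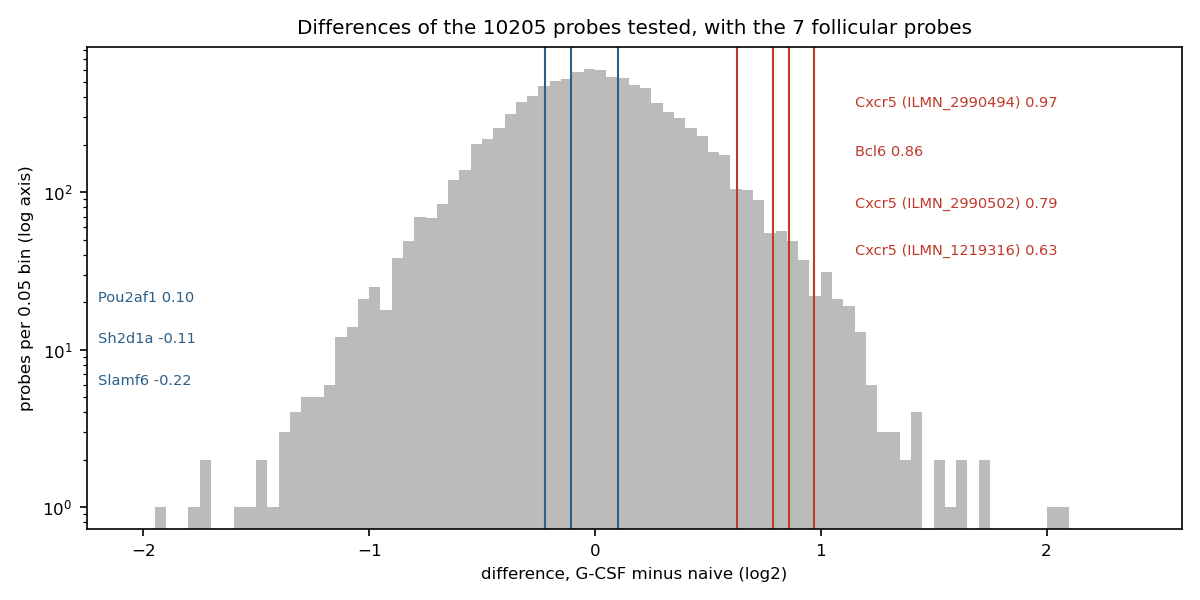
Distribution of the log2 difference, G-CSF minus naive, over the 10205 probes tested (grey bars, counts per bin on a log axis), with the 7 follicular probes as vertical lines. Red lines (groups that do not overlap) lie in the right tail between 0.63 and 0.97, and blue lines (groups that overlap) lie near the centre between -0.22 and 0.10.

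The sizes depended little on single arrays. With each array left out in turn, the Bcl6 difference ran from 0.77 to 0.96 and that of the brightest Cxcr5 probe from 0.85 to 1.07. The lowest value of each Cxcr5 probe came without naive replicate 1, its lowest array, and was 0.47 for the dimmest probe. Without the 2 brightest arrays the difference was 0.76 for Bcl6 and 0.81, 0.70 and 0.66 for the Cxcr5 probes from bright to dim. Whether array brightness had a part in these differences was not tested further.

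**Figure D3:**
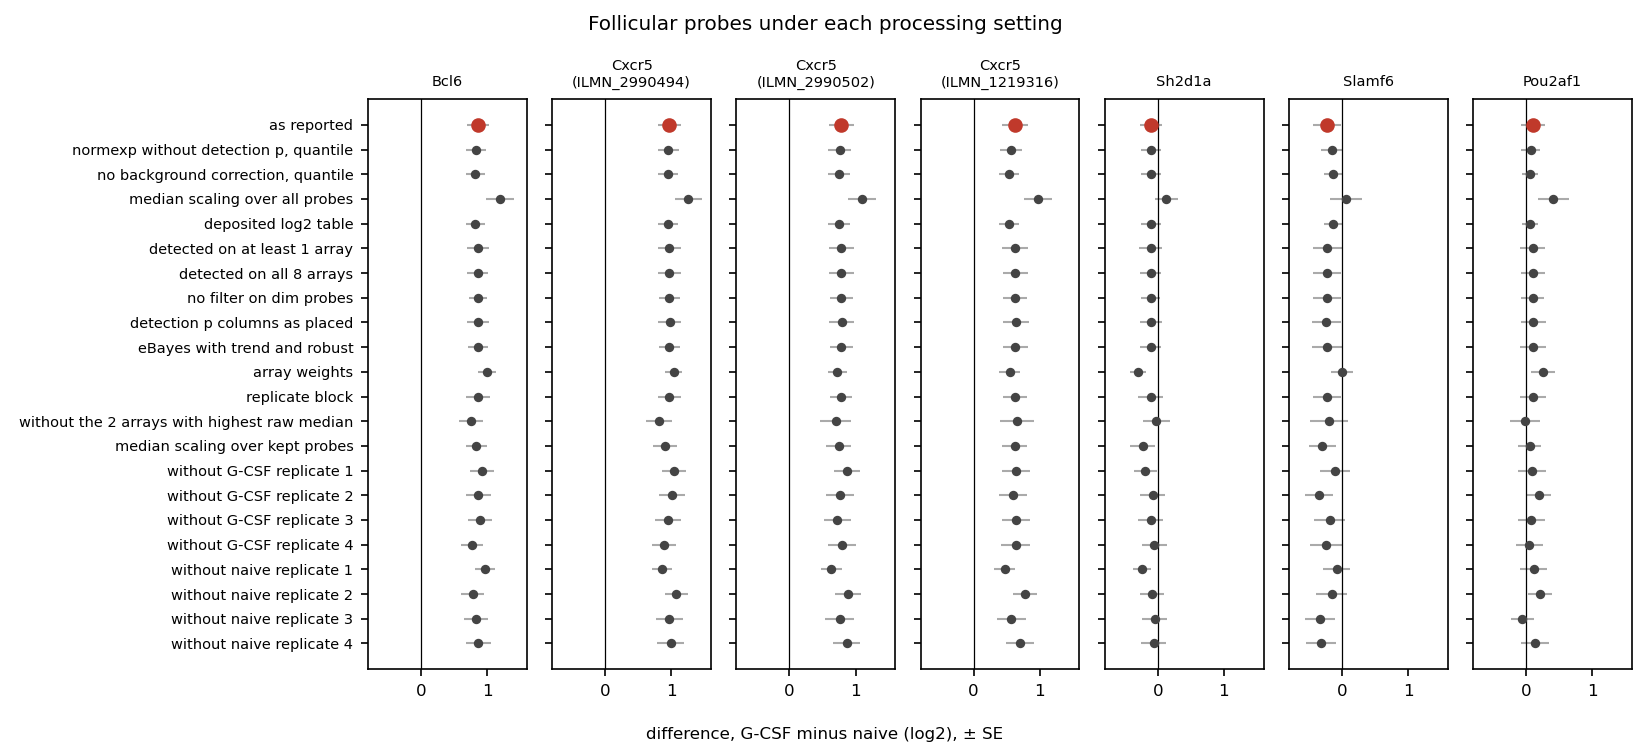
Log2 difference, G-CSF minus naive, with its SE (horizontal axes) for each of the 7 probes under the reported processing (red, top row) and 21 other settings (rows). Bcl6 and Cxcr5 stay to the right of 0 in every row, while Sh2d1a, Slamf6 and Pou2af1 lie near 0 and cross it in at least 1.

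Other genes of follicular T cells were mostly measured but none was called. Of 27 with a probe, 20 were detected on at least 4 arrays, and 0 of these were called by limma, with 14 positive differences and a list median of 0.26 against -0.01 for all probes. At an unadjusted p under 0.05 there were 6 of the 20, against 24.9% of all probes. Id3, an inhibitor of E proteins with a known part in follicular T cells, had 0.84 ± 0.21 (SE, n = 4 per group; limma adjusted p = 0.0595) with groups that did not overlap. Sostdc1, a secreted BMP and WNT antagonist, had 1.61 ± 0.47 (limma adjusted p = 0.0829), with naive arrays spread from 5.20 to 7.75.

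Pdcd1, which encodes the inhibitory receptor PD-1, was near background, detected on 4 of 4 G-CSF and 2 of 4 naive arrays, with a difference of 0.67 (limma adjusted p = 0.101). The costimulator gene Icos had 0.16 on its brightest probe and 0.87 on the other (limma adjusted p = 0.686 and 0.197). Batf and Maf, transcription factors of helper cells, had -0.27 and -0.11. Stat3, which transmits IL-6, IL-21 and G-CSF signals, had 0.19, and the Wnt pathway factor gene Lef1 had -0.04. Il21, the main follicular helper cytokine, and Cd40lg, the B cell help ligand, were not well above background on any array, nor was Cxcl13, the ligand of CXCR5. Ascl2, an inducer of Cxcr5, was above background on 1 array.

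Among 13 measured genes that oppose the programme, 1 was called. Tbx21, which encodes the Th1 regulator T-bet, rose by 1.14 ± 0.20 (log2, SE over 4 arrays per group, with an adjusted p of 0.0462 by limma). It read 7.36, 7.35, 8.12 and 8.10 on the G-CSF arrays and 6.65, 6.75, 6.50 and 6.50 on the naive arrays, so the 2 brightest arrays were also its highest. Its size depended on the background correction and was 0.67 (limma adjusted p = 0.0477) without any. Without the 2 brightest arrays the Tbx21 difference was 0.76 with a limma adjusted p of 0.246. The call was also lost without any 1 array except G-CSF replicate 1 or naive replicate 1. Prdm1, the gene of Blimp-1, was dim, with 6.76, 6.76, 7.39 and 7.50 against 6.22, 5.80, 6.83 and 6.85. Its difference of 0.68 ± 0.27 had the same sign as that of Bcl6 and an adjusted p of 0.157 by limma, and its groups overlapped. Klf2, a factor of T cell egress, had 0.21, the inhibitor gene Id2 -0.30 and the lymph node homing receptor gene Ccr7 -0.09, none of them called. S1pr1 and Stat5b were not well above background on any array.

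SLAM receptor genes other than Slamf6 had differences of either sign. Of 10 measured genes of the receptors and their adaptors limma called 0 (6 at an unadjusted p under 0.05, against 24.9% of all probes), with 9 positive differences and a list median of 0.26. On the brightest probe of each gene, Cd84, a SLAM receptor that SAP also serves, was the 1 with a negative difference. It read 10.65, 10.33, 10.58 and 10.50 on the G-CSF arrays and 11.06, 11.21, 10.96 and 11.12 on the naive arrays, which do not overlap. Its difference was -0.57 ± 0.13 (SE, n = 4 per group; limma adjusted p = 0.0534) and it was called in 9 of the 21 other settings. Scaling to the median of all probes made it -0.26. Slamf1 had 0.09 and the SLAM receptor gene Ly9 0.07 on their brightest probes. Other probes of Slamf1 (-0.07), Ly9 (-0.36) and the list gene Ptpn11 (-0.41 and -0.21) were below 0, and that of Ptpn6 (0.03) was not. Inpp5d, the gene of the phosphatase SHIP-1 that acts downstream of SLAM receptors, had 0.69 ± 0.19 (limma adjusted p = 0.0713).

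**Figure D4:**
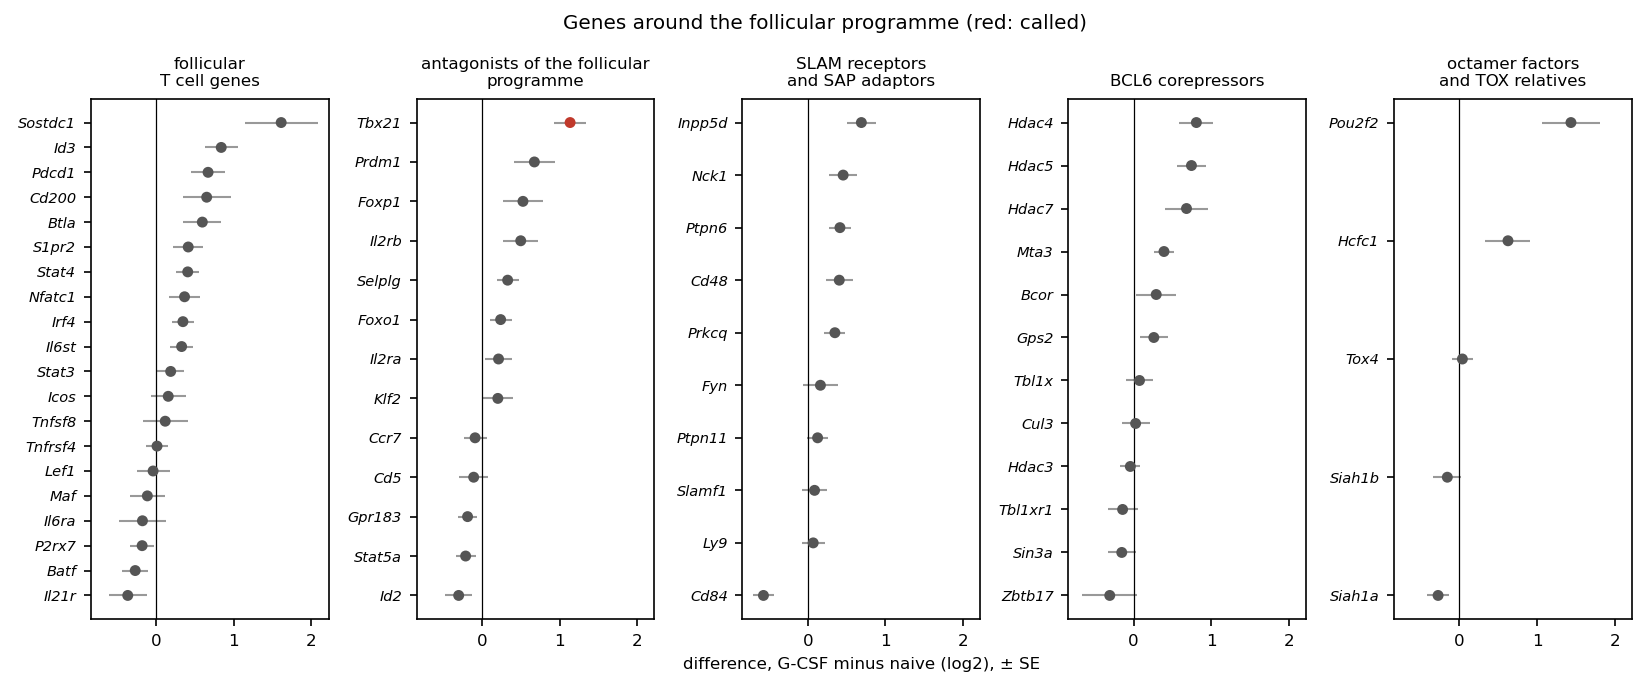
Log2 difference, G-CSF minus naive, with its SE (horizontal axes) for each measured gene of 5 lists around the follicular programme (rows, sorted within a list). Tbx21 is the single called gene (red), and Sostdc1 and Pou2f2 have the largest differences plotted, each with a wide SE.

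Partners of the member proteins gave 0 limma calls (5 of 17 genes at an unadjusted p under 0.05, against 24.9% of all probes). Of 12 measured BCL6 corepressor genes, 8 had a positive difference (list median 0.17), led by the class II deacetylases Hdac4 (0.81, limma adjusted p = 0.0700) and Hdac5 (0.74, limma adjusted p = 0.0628), while the BCL6 corepressor gene Bcor had 0.29. Pou2f2, the octamer factor Oct-2 to which OCA-B binds, had 1.44 ± 0.37 (SE, n = 4 per group; limma adjusted p = 0.0631). It read 9.20, 9.09, 10.00 and 9.98 on the G-CSF arrays and 8.60, 6.92, 8.54 and 8.47 on the naive arrays, so naive replicate 2 was far below the others. Without that array the difference was 1.03. Without the 2 brightest arrays, which were also its highest, it was 1.01 (limma adjusted p = 0.371). Hcfc1 had 0.62 and the TOX relative Tox4 0.04. Over the 5 lists together, 1 of 60 measured genes was called, or 1.67%, against 2.2% of all probes. Positive differences were found in 42 of the 60, against 49.5% of all probes. With arrays scaled to the median of all probes the count was 57, but the median difference of all tested probes was then 0.29. Scaled to the median of the probes tested it was 38, with a median difference of -0.07. Of the 60, 15 had groups that did not overlap, against 13.6% of all probes.

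Cxcr5, Bcl6 and Pou2af1 are also B cell genes, so markers of other cells were read beside them. Of 19 B cell markers with a probe, 12 were not well above background. Among these, Ms4a1 and Pax5 were above it on no array and Cd79a on 2. The other 7 were measured, and Cd79b, Fcmr, Cd37, Cd74, H2-Ab1 and H2-Eb1 were detected on all 8 arrays. Differences of the 7 ran from -1.12 (H2-Ab1) to 0.43 (Cd74), and limma called 0. Sums here take the brightest probe of every marker with a probe, measured or not, as unlogged intensities, so bright probes weigh most. Summed B cell marker intensity was 9047 to 11842 on G-CSF arrays and 10028 to 14439 on naive arrays. It was highest on naive replicate 1. That array had the lowest Cxcr5 signal of the 8 arrays and the highest Bcl6 signal of the naive ones. No array had the plasma cell marker Sdc1 well above background. Monocyte, macrophage and dendritic cell markers, 8 of 14 of them measured, summed to 15985 to 20163 on G-CSF arrays and 10841 to 15592 on naive arrays. That sum was higher on every G-CSF array, although their marker Cd14 was above background on 1 array alone. Of the 8 genes, 7 had positive differences and limma called 0. Only Lyz1 (0.91) had groups that did not overlap, while Cst3 had 0.01, Siglech 0.05 and Adgre1 -0.25. CD8 T and NK cell markers, 4 of 10 of them measured, summed to 4582 to 5981 on G-CSF arrays and 5970 to 7052 on naive arrays. They were mostly lower on G-CSF arrays, although the ranges overlapped. Cd8a and Ncr1 were not well above background on any array, while Cd8b1, Nkg7 and Prf1 were detected on every array. Neutrophil markers, 1 of 9 of them measured (Ltf), summed over all 9 to 270 to 544 on G-CSF arrays and 282 to 1500 on naive arrays. Their marker S100a8 was above background on 3 arrays and ranged from 4.65 to 9.68 over all arrays. The part of these cells in the differences of Bcl6 and Cxcr5 was not tested. In RNA of a sorted pool, more cells with a transcript and more transcript per cell cannot be told apart.

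The genes most like Bcl6 over the 8 arrays, by the root mean square difference of profiles centred on their own means, were Ccdc61 (0.10 log2 units), Zfp653 (0.11) and Tex9 (0.12). The nearest to the brightest Cxcr5 probe were Lpar6 (0.14), a lysophosphatidic acid receptor gene, Skp2 (0.17), a ubiquitin ligase gene of the cell cycle, and Lag3 (0.18), which encodes an inhibitory receptor. Bcl6 and that Cxcr5 probe differed by 0.31, which put it at rank 799 of the 10204 probes set against Bcl6. This measure includes the difference between the groups and is a description over 8 arrays.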

How the data were processed

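RNA of sorted regulatory T cells was labelled with the Illumina TotalPrep kit and read on 1-colour MouseRef-8 v2.0 bead arrays, 4 per group, per the labels' protocols. The deposited intensity values are non-normalised and stand beside detection p-values, per the file headers, and the submitters' processing notes name GenomeStudio. The deposited log2 table equals log2 intensity, quantile normalised and centred per probe on its median (SD of the difference from a recomputation at most 0.000111).

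Detection p-values were matched to the intensities with which they are in order (tolerance 0.0001). With neqc (offset 16, limma 3.58.1, R 4.3.3), intensities were background-corrected and quantile normalised. Probes with a detection p under 0.01 on at least 4 arrays, 10205 in all, were fitted with lmFit and eBayes, adjusted by Benjamini-Hochberg, and checked on simulated data. A gene's probe is its brightest. Symbols are those of the platform annotation, matched to RefSeq by Entrez identifier for 23962 of 23978 named probes. The named genes are all member probes, in each list up to 4 called genes or else the 2 with the smallest p, a fixed set of follicular regulators, and the 3 nearest profiles. Members and lists were chosen with earlier results of these data known. The number of arrays limits precision. Alternatives covered background, scaling, filter, variance model, replicate block and arrays left out.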

Additional observations from a re-analysis of the deposited data

Results flagged for a closer look

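In 4 of 80 groups of 4 arrays tested, 1 array stood apart from the other 3, and chance gives about 1 in 20. For the dimmest Cxcr5 probe, ILMN_1219316, G-CSF replicate 2 read 9.66 while the others read 9.54. For the octamer factor gene Pou2f2, naive replicate 2 read 6.92 and the others 8.47 to 8.60. Naive replicate 1 stood above the rest for the deacetylase gene Hdac5 (9.35, others 8.57 to 8.70) and for the inhibitory receptor gene Ctla4 (14.67, others 14.00 to 14.09).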

How the results depend on the processing

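Over 21 alternatives each, the difference of every Bcl6 and Cxcr5 probe stayed positive. In 141 of 147 values of the 7 member probes it moved by less than 1 SD between replicates. Scaling arrays to the median of all probes moved it further, to 1.19 for Bcl6 and 1.26, 1.10 and 0.97 for Cxcr5 from bright to dim, while the median of all probes moved to 0.29. Relative to that shift, Bcl6 had 0.91. With each array left out, the difference was 0.77 to 0.96 for Bcl6, 0.85 to 1.07, 0.63 to 0.89 and 0.47 to 0.77 for the Cxcr5 probes.

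The number of called probes was far less stable. It was 224, and 856 with median scaling over all probes (94.6% higher, against 43.3%), 14 with probes detected on at least 1 array, 4 with no filter, 3776 with array weights, 0 without the 2 brightest arrays (1439 at an unadjusted p under 0.05), and 1 to 1089 with each array left out (1089 without naive replicate 1 and 712 without G-CSF replicate 1, at most 10 without any other). With median scaling over the probes tested, chosen after seeing the data, 26.8% of calls were higher. Among the 60 follicular pathway genes, 1 call became 2 with normexp without detection p-values, without background correction, with the deposited log2 table, with probes detected on all 8 arrays, with trend and robust variance or with median scaling over the probes tested, 13 with median scaling over all probes, 28 with array weights, 0 with either looser filter or without the 2 brightest arrays, and 0 to 8 with each array left out. With the replicate block, 4 probes and 0 pathway genes were called. Deviations of same-numbered arrays correlated between -0.121 and 0.176. So few pairs cannot settle whether equal numbers share a mouse or day, and no label says that they do. The causes were not tested.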
